A study of Mus musculus with 12 samples.

Results

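The comparison described here set whole lungs that had made a soluble form of the FGF receptor FGFR2b for 6 h (LOF 6 h) against control lungs. It held 6 of the 12 arrays in the series, 3 in each group, chosen by their labels alone, and all 20738 genes with a name on the array were tested. LOF 6 h lungs came from Rosa26rtTAtet(O)solubleR2b mice after doxycycline for 6 h, and the labels give the control lungs as wild-type, without treatment. The methods of the study instead describe controls as embryos with the transactivator from mothers that also received doxycycline, with some taken at the later time, and which description applies was not settled. The strain was C57bl/6J, the embryos were at E12.5 in the methods, and each array held RNA of a single lung. The transactivator was driven from the Rosa26 locus, which is active in nearly every cell, so the soluble receptor was not limited to one cell type. The other groups, used here only for side by side values, were lungs with the soluble receptor after 9 h (LOF 9 h) and lungs with an inducible Fgf10 (Rosa26rtTAtet(O)fgf10) after 9 h of doxycycline (GOF 9 h).

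FGF10 is made by the mesenchyme of the distal lung and acts on the neighbouring epithelium through FGFR2b, the receptor isoform of epithelial cells. Receptor activation signals through the RAS and ERK kinases, raises the ETS transcription factors ETV4 and ETV5 and feedback inhibitors such as Sprouty proteins, and keeps the cells at branch tips in a progenitor state. A soluble receptor traps the ligand outside the cell, so genes that need continuous receptor signalling can be followed as the signal is withdrawn. The question here was which transcripts differ 6 h after induction, and which of these differences were also seen at 9 h.

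Each array held 62976 features with log2 intensities between 1.44 and 15.92. The authors had quantile-normalised them, so every array had a median of 2.98 and a 75th percentile of 6.01. The mean correlation of a LOF 6 h or control array with its own group was 0.974 to 0.977 over features, and with the arrays of other groups 0.972 to 0.977. These ranges overlapped. Each LOF 6 h array was slightly closer to its own group, at 0.9750, 0.9741 and 0.9764 against 0.9737, 0.9716 and 0.9751 with the others. Lung markers were well above the median on these 6 arrays, with at least 8.45 for Nkx2-1 in the epithelium, 10.50 for Tbx4 in the mesenchyme and 8.71 for Cdh5 in the endothelium. Changes below are log2 differences, LOF 6 h minus control, with the standard error of the fit (limma, n = 3 arrays per group). The p-values given are adjusted by the Benjamini-Hochberg method across the whole set of genes, and a gene was called at 0.05.

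The labels were checked first. The features named for Fgfr2 did not show the transgene. Averaged over its 11 features, Fgfr2 read 5.41, 5.11 and 5.24 in LOF 6 h lungs and 5.06, 5.02 and 5.09 in control lungs, a difference of 0.20, and 2 of the features lay below 0. With the brightest feature, Fgfr2 differed by 0.30 ± 0.15 (adjusted p = 0.592). Whether any of these features lies in the part of the receptor that the transgene carries is not known.

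A feature without a gene name did separate the arrays by transgene. Feature 23436 read 11.71, 11.91 and 11.81 in LOF 6 h lungs and 10.80, 10.59 and 10.47 in LOF 9 h lungs, against 1.95, 3.08 and 2.68 in GOF 9 h lungs and 2.18, 2.44 and 2.54 in control lungs. All 6 arrays labelled as soluble FGFR2b thus lay between 10.47 and 11.91, and all 6 others between 1.95 and 3.08. Its change at 6 h was 9.42 ± 0.29 (limma, adjusted p = 3.33e-09 over the 31511 features without a gene name). The control arrays lay below the array median of 2.98, so no fold is given. The next highest rise among features without a name was 2.48, and the highest among genes was 3.12, for Cox6a2. The soluble receptor is a fusion to an immunoglobulin heavy chain. Which transcript the feature reads could not be settled with the annotation used here, so it is given as a marker of the labels and not as a measure of the receptor.

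**Figure D1:**
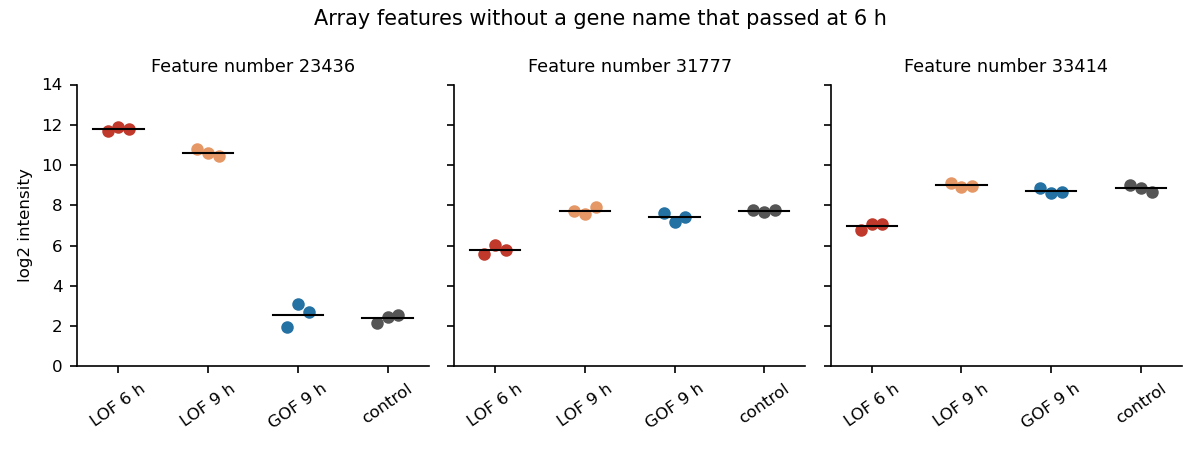
Log2 intensity (vertical axis) of the 3 array features without a gene name that passed at 6 h, with 1 point per array, the group mean as a line, and n = 3 arrays in each of LOF 6 h, LOF 9 h, GOF 9 h and control. Feature 23436 lay at 10.47 or above on the 6 arrays with soluble FGFR2b and at 3.08 or below on the others, while the other 2 features were low on the LOF 6 h arrays alone.

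Of the 20738 genes, 15 passed the test (0.0723%), 5 higher in LOF 6 h lungs (0.0241%) and 10 lower (0.0482%), and their changes had sizes of 1.05 to 2.59 with standard errors of 0.13 to 0.37. In all 15 the LOF 6 h and control arrays did not overlap, against 16.4% of all genes. The 15 were chosen by a test on the same arrays, which favours groups that lie apart, so nothing is read from this count. The median change over all genes was 0.025, and 9.36% of genes, 1941, had an unadjusted p under 0.05 (4.80% higher and 4.56% lower), where 1037 would be 1 in 20 of them. With a trended and robust variance 122 genes passed, 91 lower and 31 higher, and they held 14 of the 15. In 7 of the 15 a group mean lay below the array median, where intensities carry little signal, so the size of those changes is uncertain. The median standard error of a change was 0.265. Fits without 1 array gave 2 to 39 calls, the fewest without LOF 6 h replicate 1 and the most without GOF 9 h replicate 1, and a fit of LOF 6 h and control arrays alone gave 3. Only Snhg16 of the 15 was among those 3 (adjusted p = 0.0399), and Etv5 had an adjusted p of 0.0737 there (limma).

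**Figure D2:**
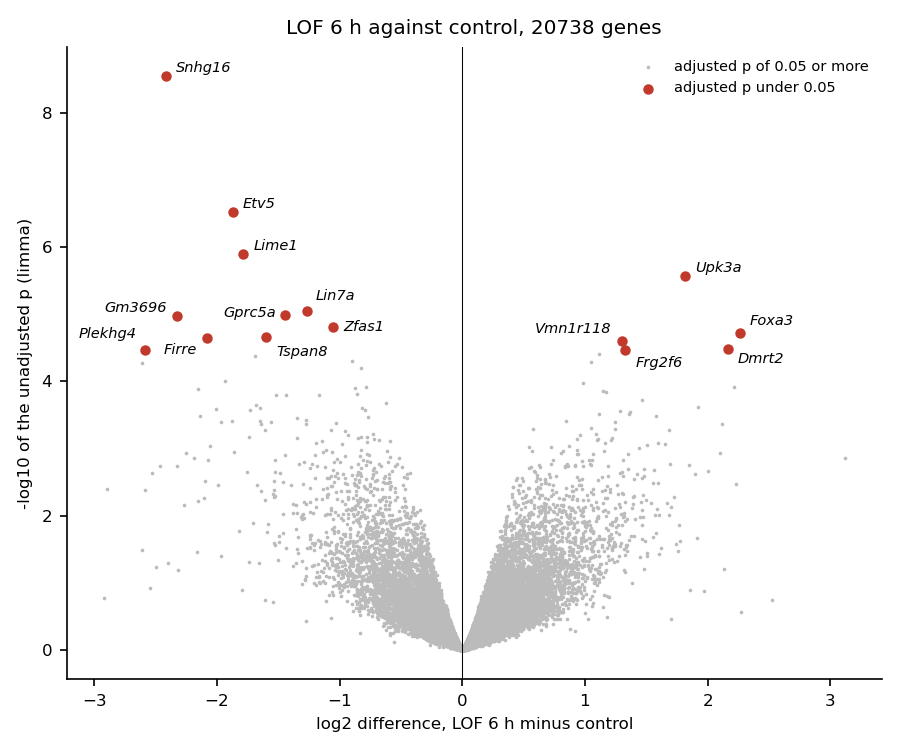
Log2 difference of LOF 6 h minus control (horizontal axis) against -log10 of the unadjusted p from limma (vertical axis), with 1 point per gene. The 15 named genes passed at an adjusted p under 0.05, with 10 to the left of 0 and 5 to the right, and Snhg16 and Etv5 stand highest.

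Among genes of the receptor's pathway, Etv5 stood out. Etv5, an ETS transcription factor that FGF signalling induces through ERK, read 10.65, 10.99 and 10.74 in LOF 6 h lungs and 12.58, 12.54 and 12.87 in control lungs. Every LOF 6 h array lay below every control array by more than the spread within either group. Etv5 fell by 1.87 ± 0.16 (limma, adjusted p = 0.0031), to 27.3% of the control intensity. At 9 h its difference from the same controls was -2.36, and LOF 6 h and LOF 9 h lungs differed by 0.49 (adjusted p = 0.337), so a further change between the times was not detected.

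Of the other ERK output genes none passed. Of 25 measured genes for ERK-induced transcription factors, Sprouty and SPRED inhibitors, dual-specificity phosphatases and immediate early genes, 10 had higher and 15 had lower values in LOF 6 h lungs (median -0.11), and Etv5 alone passed. The groups lay apart with LOF 6 h lower in 7 of the 25, where 7.51% of all genes did so, and with LOF 6 h higher in 1. The list means were 6.34, 6.31 and 6.21 on LOF 6 h arrays and 6.55, 6.49 and 6.41 on control arrays. Without Etv5 they were 6.16, 6.11 and 6.02 on LOF 6 h arrays and 6.30, 6.24 and 6.14 on control arrays, which overlap, and 6 of 24 lay apart lower. Dusp6, a phosphatase that acts on ERK and is commonly read as its target, had 10.18, 9.97 and 10.27 in LOF 6 h lungs and 10.26, 10.10 and 10.15 in control lungs. These arrays overlapped, and the change of Dusp6 was -0.03 ± 0.19 (adjusted p = 0.977).

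Other members lay lower without passing. Spry1, a Sprouty feedback inhibitor, read 8.03, 8.15 and 7.75 in LOF 6 h lungs and 8.80, 8.41 and 8.64 in control lungs, a difference of -0.64 ± 0.16 (limma, adjusted p = 0.248). Ier3, an immediate early gene of the pathway, differed by -0.97 ± 0.24 (adjusted p = 0.247) and Dusp4, a nuclear ERK phosphatase, by -0.98 ± 0.38 (adjusted p = 0.452). In Spry1, Ier3 and Dusp4 the LOF 6 h arrays were all below the control arrays. Etv4, the close relative of Etv5, had -0.57 ± 0.36 (adjusted p = 0.676), also without overlap.

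Genes of the ligands and receptors themselves held no call. Fgf10, read over 10 features, averaged 7.14 in LOF 6 h lungs and 7.24 ± 0.19 (SD, n = 3) in control lungs, with 7 features below 0 and single features between -0.24 and 0.09. None of the 5 genes for FGFR2b ligands passed. Fgf1, a ligand that binds all FGF receptors, was the lowest at -1.53 ± 0.59 with the groups apart (limma, adjusted p = 0.453). Of 15 genes for receptors and co-receptors, 9 stood higher and 6 lower (median 0.04), and none passed. Groups lay apart higher in 2 and lower in 2, where 8.91% and 7.51% of all genes did so.

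The study's early FGF10 signature was chosen on these same samples, so the direction of its genes is not independent evidence. All 14 of its genes were lower in LOF 6 h lungs, with no overlap between groups and a median change of -1.36, and 4 of the 14 passed. Of all genes 7.51% lay apart lower and 0.0482% were called lower, and since these samples chose the list nothing is read from the counts. Besides Etv5 these were Tspan8, Gprc5a and Lin7a. The mean over the 14 genes was 7.25, 7.33 and 7.30 on the LOF 6 h arrays and 8.56, 8.52 and 8.79 on the control arrays. A lower level of an epithelial transcript in a whole lung can mean fewer epithelial cells or less RNA per cell, which a whole-lung level cannot tell apart. Over 19 general epithelial genes the median change was 0.03.

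Tspan8, a tetraspanin of epithelial surfaces, read 4.84, 4.99 and 5.50 in LOF 6 h lungs and 6.64, 6.42 and 7.08 in control lungs. It fell by 1.60 ± 0.22 (limma, adjusted p = 0.0423), and the highest LOF 6 h array lay below the lowest control array. Gprc5a, an orphan receptor of lung epithelium, read 7.19, 7.42 and 7.49 in LOF 6 h lungs and 8.55, 8.92 and 8.98 in control lungs. Its groups were apart by more than their spread, and it fell by 1.45 ± 0.18 (adjusted p = 0.0312). Lin7a, a scaffold of cell polarity complexes, read 5.84, 6.30 and 6.16 in LOF 6 h lungs and 7.19, 7.42 and 7.49 in control lungs, and fell by 1.26 ± 0.16 (adjusted p = 0.0312). In Lin7a again every LOF 6 h array was the lower.

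The other 10 signature genes lay lower without passing over all genes. Slco2a1, a prostaglandin transporter, came nearest with 4.72, 5.75 and 5.49 in LOF 6 h lungs and 6.90, 6.76 and 7.37 in control lungs, a difference of -1.69 ± 0.25 (limma, adjusted p = 0.0514). Sftpc, the surfactant protein made by distal epithelium, read 9.46, 9.63 and 9.66 in LOF 6 h lungs and 11.44, 10.73 and 11.76 in control lungs. The Sftpc groups were apart, but the control arrays spread widely and the difference was -1.73 ± 0.32 (adjusted p = 0.132). Id2, an inhibitor of helix-loop-helix factors that marks branch tips, differed by -1.25 ± 0.30 (adjusted p = 0.232). Sp5, a zinc finger factor that canonical WNT signalling induces, differed by -1.06 ± 0.24 (adjusted p = 0.214).

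Of the 6 lower genes outside the signature, 3 were noncoding RNAs. Snhg16, a noncoding RNA that hosts small nucleolar RNAs in its introns, had the smallest p of all genes. It read 7.19, 7.25 and 7.02 in LOF 6 h lungs and 9.45, 9.59 and 9.66 in control lungs. The gap of more than 2 log2 units was many times the spread of either group, and Snhg16 fell by 2.42 ± 0.13 (limma, adjusted p = 5.87e-05), to 18.7% of the control intensity. Zfas1, also a host of small nucleolar RNAs, read 9.75, 9.50 and 9.69 in LOF 6 h lungs and 10.58, 10.61 and 10.90 in control lungs. The Zfas1 groups did not overlap, and it fell by 1.05 ± 0.14 (adjusted p = 0.0395).

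Snhg16 and Etv5 were the genes whose calls held in each of the 12 fits that omit 1 array, so the 250 bases before their annotated start are shown for reference (RefSeq, GRCm38.p6; the start most upstream where there are several). Capitals mark GGAA or its reverse complement TTCC, the core that ETS factors bind. Snhg16 is at chr11:116671410-116671659 on the plus strand and Etv5 at chr16:22439571-22439820 on the minus strand, both written 5′ to 3′ along the gene.
Snhg16: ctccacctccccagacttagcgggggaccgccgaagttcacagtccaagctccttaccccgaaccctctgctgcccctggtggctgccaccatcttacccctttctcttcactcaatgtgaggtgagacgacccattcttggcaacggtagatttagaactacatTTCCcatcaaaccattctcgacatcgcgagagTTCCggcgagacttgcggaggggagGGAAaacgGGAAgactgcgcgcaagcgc
Etv5: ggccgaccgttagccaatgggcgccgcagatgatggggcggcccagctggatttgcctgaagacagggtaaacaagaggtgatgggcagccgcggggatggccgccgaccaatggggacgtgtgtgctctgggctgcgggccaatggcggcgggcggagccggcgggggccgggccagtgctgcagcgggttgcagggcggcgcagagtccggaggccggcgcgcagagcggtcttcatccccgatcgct
Snhg16 held 4 matches and Etv5 none, and of 27025 promoters of this length 93.4% held at least 1. The longer motif GGAAGT, searched on both strands and overlapping the core, was in 19.9% of all promoters and in none of the 9 lower, 4 higher and 11 early signature genes that have a promoter entry. These are descriptions of letters in 1 window.

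Of 24 listed host genes of small nucleolar RNAs, 13 were measured, 9 lower and 4 higher, with a median of -0.49, and 2 passed, where 0.0482% of all genes were called lower. These 2 are Snhg16 and Zfas1, described above, and the other 11 had a median of -0.31. The list was made with earlier results of these data known, so nothing is read from its count of calls. Snhg3 read 8.73, 8.69 and 8.46 in LOF 6 h lungs and 9.59, 9.40 and 9.74 in control lungs, a difference of -0.95 ± 0.29 (limma, adjusted p = 0.33). Dancr differed by -0.74 ± 0.34 (adjusted p = 0.554), and Gas5, the best known host, by -0.26 ± 0.31 with overlapping arrays (adjusted p = 0.85). Without Snhg16 and Zfas1 the list means were 7.62, 7.76 and 7.67 on LOF 6 h arrays and 8.06, 7.93 and 8.04 on control arrays. Several such host RNAs are known to be degraded when ribosomes engage them. The 22 measured genes of cytosolic ribosomal proteins had a median change of 0.01 with none passing. Genes of ribosome biogenesis were lower in 22 of 25, where 46.5% of all genes were lower, with a median of -0.17 and none passing. Their groups lay apart lower in 6 and higher in 0, where 7.51% and 8.91% of all genes did so. No test of this list was made.

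Firre, a nuclear noncoding RNA of the X chromosome, was the third noncoding gene to pass. It read 2.36, 1.97 and 3.37 in LOF 6 h lungs and 4.82, 4.59 and 4.53 in control lungs, and fell by 2.08 ± 0.28 (limma, adjusted p = 0.0423). The arrays did not overlap for this feature, but the LOF 6 h values were near or below the array median, and the 3 Firre features ranged from -2.08 to 0.21.

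Long noncoding RNAs were then set beside the other genes by their RefSeq type, a grouping made after these values were seen. All 3 called long noncoding RNAs were lower, of 756 measured. Their groups lay apart with LOF 6 h lower in 73 (9.66%) and higher in 36 (4.76%), while protein-coding genes lay apart lower in 7.44% and higher in 9.09%. With genes whose mean over all 12 arrays was above the array median, it was 27 lower and 7 higher of 197 long noncoding RNAs, against 1172 lower and 1446 higher of 13215 protein-coding genes. No test of the difference was made.

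Mir17hg, Meg3 and Mirg are 3 single noncoding genes that did not pass and were chosen here after their values were seen. Mir17hg, which encodes the miR-17 cluster, read 4.50, 2.96 and 4.69 in LOF 6 h lungs and 6.95, 6.19 and 6.62 in control lungs, a difference of -2.53 ± 0.63 (limma, adjusted p = 0.247). Meg3, an imprinted noncoding RNA, read 9.01, 8.78 and 8.69 in LOF 6 h lungs and 11.43, 10.69 and 10.82 in control lungs, a difference of -2.16 ± 0.36 (adjusted p = 0.0989). Mirg, a microRNA host gene of the same imprinted region, differed by -1.65 ± 0.32 (adjusted p = 0.146). In Mir17hg, Meg3 and Mirg no LOF 6 h array reached a control array. The other features of Meg3 were lower too, with single features between -2.16 and -0.45.

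Clk1, Pnisr, Nktr and Hnrnpdl are 4 single genes, again chosen after their values were seen, and were not tested as a group. Clk1, a kinase of splicing factors, read 7.37, 7.51 and 7.47 in LOF 6 h lungs and 9.06, 8.47 and 8.63 in control lungs, a difference of -1.27 ± 0.25 (limma, adjusted p = 0.147). Pnisr, an arginine and serine rich nuclear protein, differed by -1.11 ± 0.25 (adjusted p = 0.214), Nktr, a cyclophilin with a similar domain, by -0.86 ± 0.15 (adjusted p = 0.10), and Hnrnpdl, an RNA-binding protein, by -0.59 ± 0.12 (adjusted p = 0.185). Their arrays did not overlap. None passed in the fit used here, whereas with a trended and robust variance all 4 were among 122 genes called.

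Lime1, an adaptor of signalling at lymphocyte membranes, read 6.50, 6.45 and 6.87 in LOF 6 h lungs and 8.45, 8.20 and 8.53 in control lungs. It fell by 1.79 ± 0.18 (limma, adjusted p = 0.00871), and both of its features gave the change, at -1.82 and -1.79. Plekhg4 read 2.93, 2.67 and 1.93 in LOF 6 h lungs and 4.91, 4.76 and 5.62 in control lungs, and fell by 2.59 ± 0.37 (adjusted p = 0.0473). The predicted gene Gm3696 read 2.84, 2.37 and 3.38 in LOF 6 h lungs and 5.52, 4.75 and 5.30 in control lungs, and fell by 2.33 ± 0.29 (adjusted p = 0.0312). Plekhg4 and Gm3696 were apart in all arrays, with LOF 6 h values near the bottom of the intensity range.

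Atf4, the transcription factor of the integrated stress response, was among the closest genes below that did not pass. It read 12.22, 12.18 and 12.17 in LOF 6 h lungs and 13.06, 13.00 and 12.99 in control lungs, a difference of -0.82 ± 0.13 (limma, adjusted p = 0.0626). The arrays of each group agree closely and the groups are far apart for their spread. Of 16 genes of the ATF4 response, 8 stood higher and 8 lower, with a median of -0.003. Trib3, a pseudokinase that ATF4 induces, differed the other way, by 1.03 ± 0.24 (adjusted p = 0.231). Others next by p among the lower genes were Olfr1372-ps1, B020031M17Rik, Rhox8, Egfl7 and Ifrd1. They differed by -0.90, -2.61, -1.93, -0.79 and -0.875 (limma, adjusted p = 0.0543, 0.0543, 0.0913, 0.0989 and 0.0989). The 2 features of Rhox8 ranged from -1.93 to 0.34.

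Of the 5 genes that rose, Upk3a and Foxa3 belong to endoderm. Upk3a, which encodes a uroplakin of urothelium that is also made in airway epithelium, read 4.42, 4.46 and 4.29 in LOF 6 h lungs and 2.22, 2.96 and 2.54 in control lungs. All LOF 6 h arrays lay above all control arrays, and Upk3a rose by 1.82 ± 0.20 (limma, adjusted p = 0.0142). Its control arrays all lay below the array median of 2.98, so the size of the rise is uncertain. Foxa3, a forkhead factor of endoderm, read 5.46, 5.99 and 5.08 in LOF 6 h lungs and 3.29, 2.79 and 3.67 in control lungs, and rose by 2.26 ± 0.30 (adjusted p = 0.0423). The Foxa3 groups were apart, with control values near the array median. Its relatives Foxa1, with 0.49 ± 0.14 (adjusted p = 0.298), and Foxa2, with 0.10 ± 0.14 (adjusted p = 0.869), did not pass.

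Like Upk3a, the other rising genes were dim. Dmrt2, a factor of the DM domain family known from somite patterning, read 4.21, 4.72 and 4.46 in LOF 6 h lungs and 2.04, 2.77 and 2.09 in control lungs, and rose by 2.16 ± 0.31 (limma, adjusted p = 0.0473). Frg2f6 rose by 1.33 ± 0.19 (adjusted p = 0.0473) and the pheromone receptor gene Vmn1r118 by 1.30 ± 0.18 (adjusted p = 0.0431). In Frg2f6 and Vmn1r118 no array of either group exceeded 3.62, so their levels were close to the bottom of the range throughout. Both belong to multigene families, in which a feature may read several members.

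**Figure D3:**
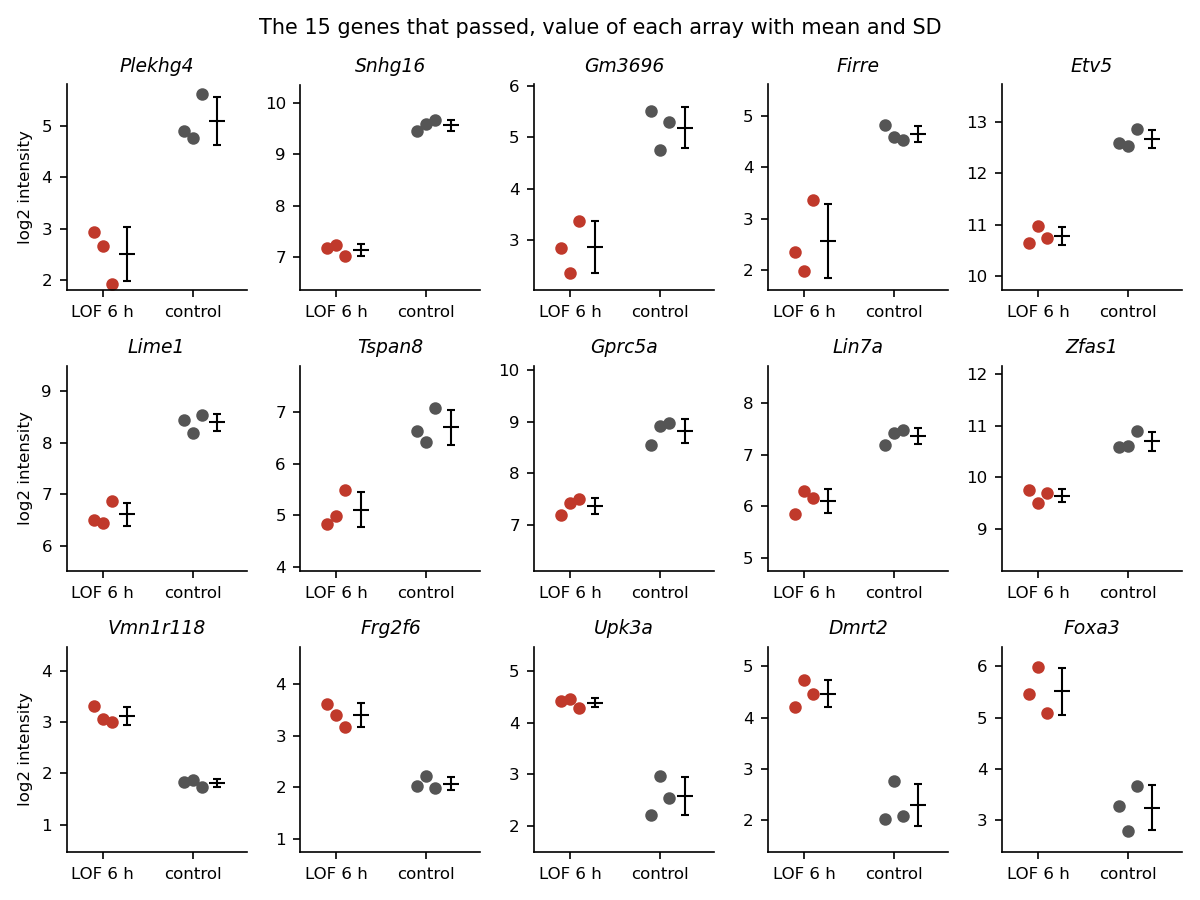
Log2 intensity (vertical axis) of the 15 genes that passed, with 1 point per array, LOF 6 h left of control, and mean and SD (n = 3) beside the points; each panel spans the same number of log2 units. No gene has a LOF 6 h array within the range of the control arrays, and the rising genes start from control values of 3.67 or below.

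Of the 8 genes next by p among the higher ones none passed. The olfactory receptor gene Olfr936 came nearest, with 1.11 ± 0.16 (limma, adjusted p = 0.0508) and means of 3.23 in LOF 6 h and 2.12 in control lungs. Nlrp4d, Cibar2 and Olfr1350, also dim, differed by 1.15, 1.47 and 1.29 (adjusted p = 0.1003, 0.116 and 0.132). Wnt4, a ligand of the WNT family, read 4.66, 5.11 and 5.14 in LOF 6 h lungs and 2.27, 2.32 and 3.67 in control lungs, a difference of 2.21 ± 0.37 (limma, adjusted p = 0.0989). Nedd9, a scaffold of focal adhesions, was well above background with 8.95, 8.89 and 9.18 in LOF 6 h lungs and 8.09, 7.65 and 7.76 in control lungs, a difference of 1.17 ± 0.20 (adjusted p = 0.10). The groups lay apart in Wnt4 and in Nedd9. Hs3st6, an enzyme that modifies heparan sulphate, differed by 1.92 ± 0.35 (adjusted p = 0.132). Barx1, a homeobox factor of the embryonic stomach, differed by 1.37 ± 0.26 (adjusted p = 0.136).

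Markers of epithelial regions gave no list-wide change that passed gene by gene. Of 18 distal tip genes, 12 stood lower and 6 higher (median -0.24), and 1 passed, Etv5. Its Etv5, Sftpc and Id2 belong to the early signature, which these samples chose. Without these 3 the list means overlapped, at 8.15, 8.28 and 8.22 on LOF 6 h arrays and 8.37, 8.38 and 8.24 on control arrays, with a median of -0.15 over 15 genes. Sox9, the tip transcription factor, read 6.80, 6.93 and 6.95 in LOF 6 h lungs and 7.24, 7.68 and 6.22 in control lungs. These arrays overlapped, and Sox9 differed by -0.15 ± 0.43 (limma, adjusted p = 0.944).

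Of 15 proximal airway, basal and neuroendocrine genes, 10 stood higher in LOF 6 h lungs and 5 lower (median 0.31). Groups lay apart with LOF 6 h higher in 5 of the 15, where 8.91% of all genes did so, and Upk3a alone passed. Sox2, the proximal transcription factor, read 7.40, 7.30 and 7.26 in LOF 6 h lungs and 6.12, 6.59 and 6.16 in control lungs. All LOF 6 h arrays were the higher, with a difference of 1.02 ± 0.30 (limma, adjusted p = 0.302). Calca and Chga, products of neuroendocrine cells, differed by 0.97 ± 0.30 (adjusted p = 0.344) and 0.92 ± 0.34 (adjusted p = 0.441).

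Alveolar type 2 genes were lower in 12 of 15, where 46.5% of all genes were lower, with a median of -0.20 and none passing. The 3 that lay apart lower (7.51% of all genes) were Sftpc, Sftpa1 and Sftpb. These are in the study's early or late signature, which this study's own arrays chose, so nothing is read from the counts. Alveolar type 1 genes were 7 higher and 7 lower with 1 passing, Gprc5a, where 0.0482% of all genes were called lower. Their groups lay apart lower in 5 and higher in 2, where 7.51% and 8.91% of all genes did so. Gprc5a and Akap5 of this list are in the early or late signature too, so nothing is read from these counts either. Nkx2-1, the transcription factor that defines lung epithelium, read 8.73, 8.89 and 8.45 in LOF 6 h lungs and 9.39, 9.38 and 9.50 in control lungs, a difference of -0.73 ± 0.19 (limma, adjusted p = 0.248). The Nkx2-1 groups did not overlap. The 19 general epithelial genes counted 11 higher and 8 lower (median 0.03) and averaged 7.84, 8.06 and 7.77 in LOF 6 h and 7.73, 7.93 and 7.90 in control arrays. Cdh1, the epithelial cadherin, had -0.04 ± 0.18 (adjusted p = 0.97) and Epcam, an epithelial adhesion molecule, 0.46 ± 0.19 (adjusted p = 0.481).

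Neighbouring signalling pathways held no called gene. The median was -0.07 over 20 canonical WNT genes, -0.11 over 16 BMP and ID genes and 0.03 over 13 Hedgehog genes. Bmp4, a ligand of branch tips, read 10.03, 9.81 and 9.94 in LOF 6 h lungs and 10.57, 10.59 and 10.56 in control lungs, a difference of -0.65 ± 0.25 without overlap (limma, adjusted p = 0.456). Shh, the Hedgehog ligand of lung epithelium, had -0.27 ± 0.17 with overlapping arrays (adjusted p = 0.686). Vegfa, the vascular growth factor made by lung epithelium, had -0.90 ± 0.27 (adjusted p = 0.323).

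**Figure D4:**
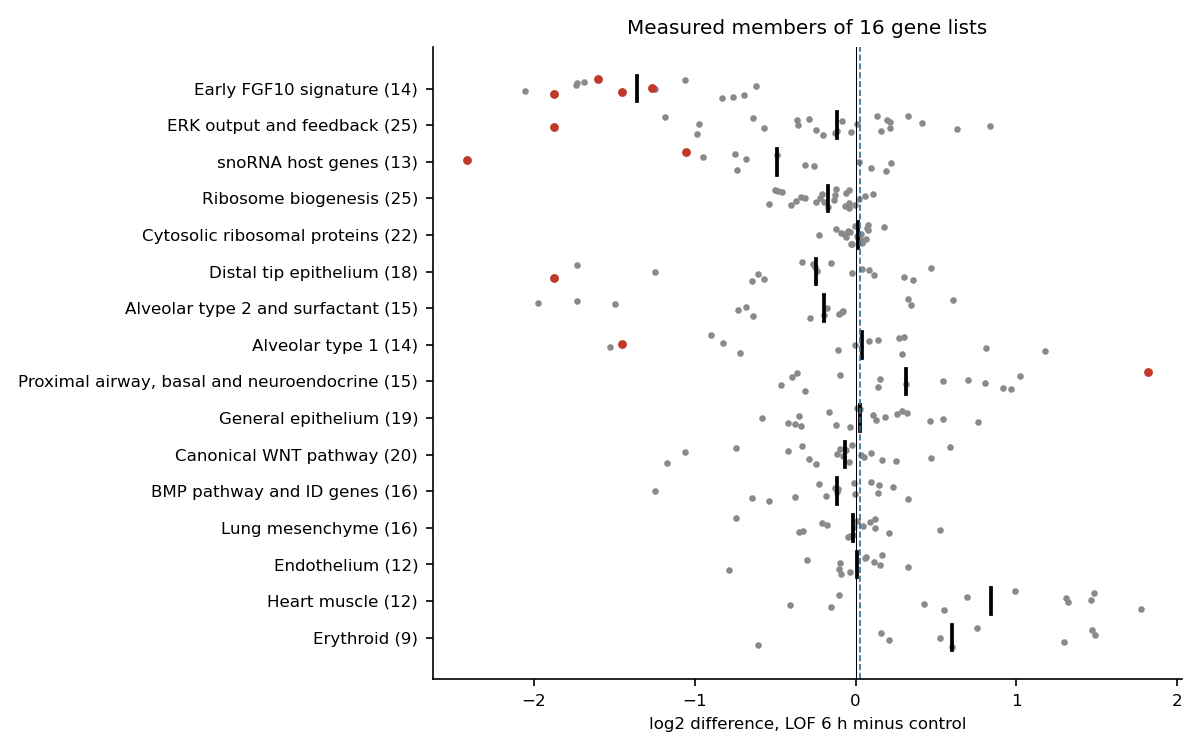
Log2 difference of LOF 6 h minus control (horizontal axis) for each measured member of 16 gene lists, with the number measured in brackets. Red points passed at an adjusted p under 0.05, black bars are list medians and the dashed line is the median over all genes, 0.025; the early signature lies wholly left of 0 (median -1.36) and the heart list mostly right of it (median 0.84).

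Mesenchymal, endothelial and cell cycle lists had medians of -0.01, 0.01 and 0.00. In the marker lists of tissues outside the lung no gene passed. Heart muscle genes were 9 higher and 3 lower of 12, with a median of 0.84, and 3 lay apart higher, where 8.91% of all genes did so. Averaged over the list, LOF 6 h arrays read 7.61, 7.03 and 6.98 and control arrays 6.85, 6.37 and 6.05, so the lowest LOF 6 h array lay just above the highest control array. Myh6, an atrial myosin, read 12.02, 11.52 and 11.31 in LOF 6 h lungs and 11.11, 9.39 and 9.02 in control lungs (1.77 ± 0.67, limma, adjusted p = 0.449). With the heart mean as a covariate 1 gene passed, Snhg16 (adjusted p = 0.0053), and the changes were -2.27 for Snhg16, -1.86 for Etv5, 1.87 for Upk3a and 2.53 for Foxa3. In the same fit Gprc5a had -1.10, Tspan8 -1.24 and Lin7a -1.04, each smaller in size than without the covariate.

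Erythroid genes were 8 higher and 1 lower of 9, with a median of 0.60 and overlapping list means (9.65, 9.77 and 9.37 on LOF 6 h arrays, 8.44, 9.51 and 8.88 on control arrays). Genes of thyroid, thymus, oesophagus and stomach were 6 higher and 5 lower of 11, with a median of 0.58 and means of 4.60, 4.24 and 4.22 on LOF 6 h arrays and 3.88, 4.08 and 3.51 on control arrays. Cym, a gastric protease, read 10.44, 9.71 and 9.10 in LOF 6 h lungs and 7.98, 6.60 and 7.97 in control lungs (2.23 ± 0.59, limma, adjusted p = 0.259). Neural genes were 8 higher and 1 lower of 9, with 3 apart higher (8.91% of all genes) and means of 6.05, 6.12 and 6.45 on LOF 6 h arrays and 5.89, 5.78 and 5.58 on control arrays. The part of erythroid, foregut and neural RNA in the other differences was not tested.

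Embryo sex was not balanced. Xist, the RNA of the inactive X chromosome, read 2.37, 2.20 and 1.94 in LOF 6 h lungs and 5.96, 2.11 and 5.94 in control lungs. The Y-linked gene Eif2s3y read 3.31, 7.74 and 7.59 in LOF 6 h lungs and 1.88, 7.75 and 2.20 in control lungs. In LOF 6 h replicate 1 both were low, while in each of the other 5 arrays one of them was high. The mean of the Y-linked genes on that replicate was 2.25, beside 2.14 and 2.08 on the control arrays with high Xist. As a covariate this mean is thus not a full adjustment for sex. With the mean of the Y-linked genes as a covariate 10 genes passed in place of 15, and 6 of them were among the 15: Snhg16, Etv5, Gprc5a, Lime1, Lin7a and Upk3a. The other 9 lost their calls. Among these Zfas1, Foxa3, Tspan8, Vmn1r118 and the X-linked Firre had an adjusted p of 0.0715 each, Gm3696 of 0.0583, Dmrt2 and Frg2f6 of 0.0875 and Plekhg4 of 0.0944 (limma).

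The 9 h lungs divided the 15 genes. The comparisons at 6 h and 9 h share their control arrays, so the direct difference between LOF 6 h and LOF 9 h arrays was used for the test. Xist read 2.37, 2.20 and 1.94 on the LOF 6 h arrays and 6.18, 5.51 and 6.35 on the LOF 9 h arrays, so embryo sex and time cannot be told apart in it. With the mean of the Y-linked genes as a covariate 1 gene passed between the times in place of 13. That mean was 2.25 on LOF 6 h replicate 1 and 1.92 to 2.27 on the LOF 9 h arrays. It therefore does not follow Xist on that array and is not a full adjustment for sex. Of the 10 lower genes, Etv5, Tspan8, Gprc5a and Lin7a were also called lower at 9 h, with differences from control of -2.36, -2.44, -1.70 and -2.08, and of the 5 higher genes Upk3a was also called higher, at 2.58. Of all genes 0.0723% were called at 9 h in either direction. The 4 lower genes are in the early signature, which these samples chose, and both comparisons share the control arrays. Nothing is therefore read from these counts. None of the 5 genes called at both times differed between 6 h and 9 h past the test. Lin7a came nearest, with 0.82 (limma, adjusted p = 0.114).

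The other lower genes stood close to control at 9 h. Snhg16 differed from control by -0.38 at 9 h, and was lower at 6 h than at 9 h by 2.03 on the log2 scale (limma, adjusted p = 3.25e-04). Lime1 differed by -0.10 at 9 h and was lower at 6 h than at 9 h by 1.68 (adjusted p = 0.0161). Zfas1 differed by 0.13 at 9 h and was lower at 6 h by 1.18 (adjusted p = 0.0253). Gm3696 and Plekhg4 likewise passed, with adjusted p-values of 0.0161 and 0.0326, and Firre did not (adjusted p = 0.0553). Altogether 5 of the 10 lower genes were lower at 6 h than at 9 h past the test, where 0.0627% of all genes differed in either direction. The 10 were chosen for low values on the same LOF 6 h arrays, which favours a lower value at 6 h, so nothing is read from this count.

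Among the 5 that rose, Vmn1r118 was higher at 6 h than at 9 h by 1.36 (limma, adjusted p = 0.0326). Dmrt2 had a difference from control of 0.16 at 9 h and Foxa3 of 0.97, but their differences between the times, 2.01 and 1.29, did not pass (adjusted p = 0.0558 and 0.181). In GOF 9 h lungs the 15 genes differed from control by -0.42 to 0.60 and none passed. The brightest Fgf10 feature itself differed from control by 0.10 ± 0.24 in GOF 9 h lungs (limma, adjusted p = 0.999). Whether that feature reads the inducible Fgf10 is not known, so the GOF 9 h values cannot be read as the effect of raised Fgf10.

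**Figure D5:**
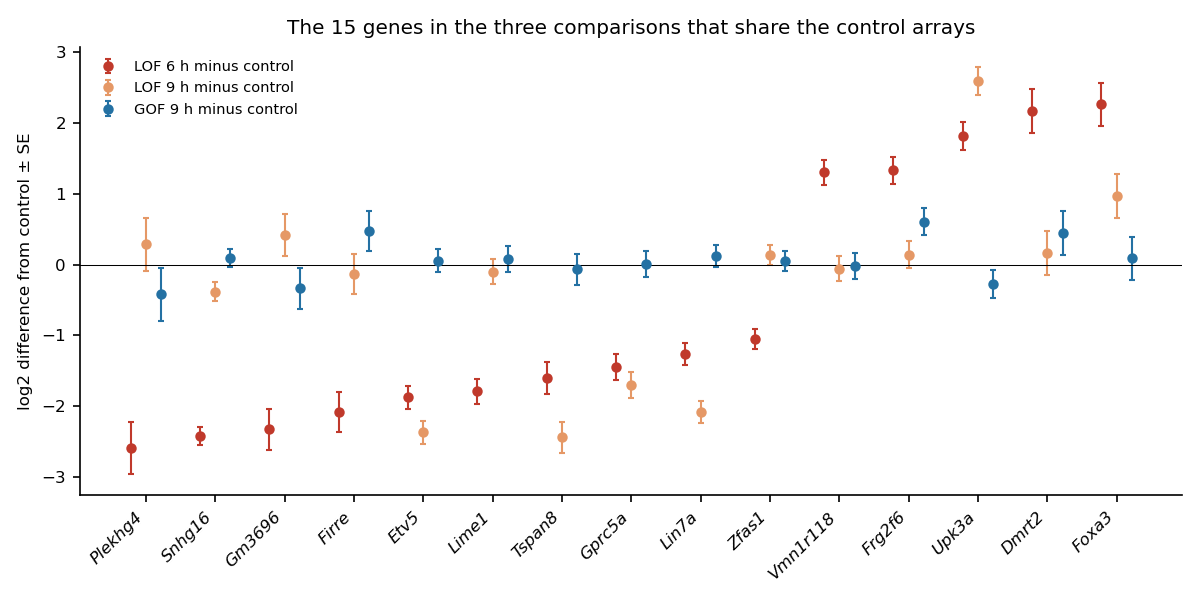
Log2 difference from control with its standard error (vertical axis) for the 15 genes in LOF 6 h, LOF 9 h and GOF 9 h lungs (n = 3 arrays each), all against the same 3 control arrays. Etv5, Tspan8, Gprc5a, Lin7a and Upk3a lie away from 0 at 6 h and at 9 h, while Snhg16, Lime1 and Zfas1 lie between -0.38 and 0.13 at 9 h.

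In total 13 genes differed between LOF 6 h and LOF 9 h lungs (0.0627% of those tested), 10 lower at 6 h and 3 higher. Beyond the genes above, Meg3 was lower at 6 h than at 9 h by 2.58 (limma, adjusted p = 0.0455), and Zc3h7a, a zinc finger protein, by 1.49 (adjusted p = 0.0326). Zc3h7a read 6.81, 7.29 and 6.85 in LOF 6 h lungs and 7.76, 8.01 and 7.98 in control lungs. Pnliprp1, a lipase-related gene, was lower at 6 h than at 9 h by 2.77 (adjusted p = 0.0326), but from the other side: it stood 1.48 above control at 6 h and 4.25 above control at 9 h.

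The other 2 features without a gene name that passed, of 31511 tested (3 called, 0.00952%), were low at 6 h. Feature 31777 read 5.56, 6.04 and 5.78 in LOF 6 h lungs, 7.72, 7.59 and 7.92 in LOF 9 h lungs, 7.60, 7.18 and 7.44 in GOF 9 h lungs and 7.78, 7.67 and 7.78 in control lungs. Feature 33414 read 6.78, 7.08 and 7.07 in LOF 6 h lungs, 9.11, 8.92 and 8.95 in LOF 9 h lungs, 8.87, 8.59 and 8.68 in GOF 9 h lungs and 9.00, 8.87 and 8.67 in control lungs. Each was lower on the LOF 6 h arrays than on any of the other 9 arrays.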

How the data were processed

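RNA of whole mouse embryonic lungs was amplified, labelled with Cy3 and hybridised to 1-colour Agilent arrays. The authors corrected mean spot intensity for background with NormExp on negative control spots, took logarithms and quantile-normalised the arrays, and deposited log2 values of 62976 features on 12 arrays, of which 10 values were missing. Groups follow the sample labels. A single gene symbol was given to 31465 features through the platform annotation and RefSeq (GRCm38.p6), and 31511 features without one were tested apart. For the 6171 genes with several features, the brightest one on average across the 12 arrays stood for the gene, with no filter on dim genes. The study's methods also take the brightest probe of a gene, but they first average replicate spots on each array. That averaging was not done here, and 276 genes had 10 features each. Linear models with 4 group means were fitted to all 12 arrays in limma 3.58.1 (R 4.3.3), with 8 residual degrees of freedom and 2.27 prior ones. Tests were two-sided, and nothing in the labels says whether arrays of a group came from separate litters. The pipeline was tested on simulated data.

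The members, lists and named genes were chosen with earlier results of these data known. By rule, named genes were all called genes and the 8 next in each direction by p whose groups lay apart. For these 8 the higher group mean also had to lie above the array median. Up to 4 members of each of 41 lists by p and the genes the study's lists name were added. Not every gene of the rule is described, and some described list members, such as Dusp6, lie outside it. Of the genes described as chosen after their values were seen, Meg3 is also among the 8 next lower genes, and the others lie outside this rule. Alternatives were median centring, cyclic loess, the mean of all features, level filters, a 2-fold threshold, trended and robust variance, array weights, fewer groups, covariates, a replicate block and leaving out each array. Leaving named members out of 3 lists was added after the data were seen.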

Additional observations from a re-analysis of the deposited data

Results flagged for a closer look

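A feature without a gene name lay outside the gene comparisons and was flagged because it was far above the control arrays: feature 23436 differed by 9.42 on the log2 scale, LOF 6 h minus control, with means of 11.81 on the LOF 6 h, 10.62 on the LOF 9 h and 2.39 on the control arrays. Its transcript is not known from the annotation used here.

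The other flagged results are genes whose effect differed between the 2 times by the direct test of LOF 6 h minus LOF 9 h (limma, n = 3 arrays per group, adjusted p under 0.05 over 20738 genes). Xist also separates these arrays, and with the Y-linked mean as a covariate 1 gene passed in place of 13. That covariate does not follow Xist on LOF 6 h replicate 1. Lower at 6 h than at 9 h were Plekhg4 (-2.87), Pnliprp1 (-2.77), Gm3696 (-2.75), Rgs11 (-2.64), Meg3 (-2.58), Snhg16 (-2.03), Mamdc4 (-1.79), Lime1 (-1.68), Zc3h7a (-1.49) and Zfas1 (-1.18). Higher at 6 h than at 9 h were Plppr5 (2.48), Vmn1r118 (1.36) and Itgax (1.22). Only Plekhg4, Gm3696, Snhg16, Lime1, Zfas1 and Vmn1r118 of these 13 genes were also called against control at 6 h. Rgs11 read 3.62, 3.21 and 3.80 in LOF 6 h lungs and averaged 6.18 in LOF 9 h lungs, and Mamdc4 read 4.74, 4.94 and 3.95 in LOF 6 h lungs and averaged 6.34 in LOF 9 h lungs. Itgax and Plppr5 were dim in LOF 9 h lungs, with means of 1.68 and 2.46.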

How the results depend on the processing

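The count of genes called at 6 h depended on the fit. Of 107 single genes under up to 25 alternatives, 1 value changed sign, Myh6 at -0.093 with the heart list, which holds it, as covariate. These genes were called, next by p or had an unadjusted p under 0.05 (limma) on the same arrays. That choice favours a kept direction, so nothing is read from this count. Against 15 genes called, there were 29 above the 50th percentile of level, 122 with a trended and robust variance, 24 with array weights, 3 with only LOF 6 h and control arrays and 1 with the heart list as covariate. Of the features without a gene name, 64, 1, 43, 20 and 1 passed in place of 3 with a trended and robust variance, with only LOF 6 h and control arrays, with control and both LOF groups, with the Y-linked mean and with the heart list as covariate. Between LOF 6 h and LOF 9 h, 27 and 116 genes passed in place of 13 above the 25th and the 50th percentile, 161 with a trended and robust variance, 37 with array weights, 26 with control and both LOF groups, 1 with the Y-linked mean and 2 with the heart list. Without 1 array, the counts were 2 (without LOF 6 h replicate 1) to 39 (without GOF 9 h replicate 1), 1 to 49 and 1 to 49, and GOF 9 h replicate 1 gave the highest each time. The cause was not tested.

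In those 12 fits, Snhg16 and Etv5 kept their calls in all, Lime1 in 10 and Upk3a in 9, and each of the other 11 genes in 4 or fewer. With the replicate number as a replicate block, 6 genes, 1 feature without a gene name and 5 genes between the times passed. Same-numbered arrays share only a number: their deviations correlated at 0.101, 0.024 and 0.01, and 1 of 3 LOF 6 h arrays correlated best with its own number. Low intensities limit the dim genes, whose features cannot show how far they fell.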
